A study of Mus musculus with 10 samples.

Results

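Potassium channel genes were followed in 5 mouse small cell lung cancer (SCLC) lines with a MYCN transgene switched on or off. The members were the 98 genes of the deposited tables whose symbol starts with Kcn followed by further letters, out of 24391 genes listed, and 53 of them had at least 10 counts in 4 or more of the 10 libraries and are reported. The lines G4314, G9351, G9488, G9529 and G9577 came from mouse SCLC tumours with the labelled genotype Rb;p53,TRE-MYCN, LSL-RTTA. That is, every line carries altered Rb and p53 genes, MYCN under a tetracycline-responsive (TRE) promoter, and the doxycycline-dependent activator rtTA behind a lox-flanked stop. The Cre that opens this stop and the cells it acted in are not given in the sources used here. The MYCN-on group is the 5 lines grown on doxycycline (ON DOX), and the MYCN-off group is the same 5 lines kept off doxycycline for 4 days. Polyadenylated RNA of 1 culture per line and condition was sequenced, to find which genes depend on MYCN. Since all cultures carry the transgene, an effect of doxycycline itself cannot be told apart from that of MYCN. Deposited counts totalled 9586465 to 11960074 per library. No label names the species of the MYCN transgene, so how far counts of the mouse gene Mycn measure the transgene is not known. Mycn stood at 482 to 959 CPM (counts scaled to a common library size) with MYCN on and at 27.8 to 189 CPM with MYCN off, without overlap of the groups.

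Potassium channels let potassium leave the cell along its gradient, which sets the resting membrane potential and ends action potentials. Neuroendocrine lung cells and SCLC cells are electrically excitable, and voltage-gated, calcium-gated, inward rectifier and two-pore-domain channels share this work. Pore-forming subunits assemble into the channel, while modulatory and accessory subunits change its gating, trafficking or surface number.

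G9577 stood apart from the other 4 lines before any comparison of conditions. Its summed CPM of 14 neuroendocrine markers was 285 with MYCN on and 282 with MYCN off, against 4394 to 9021 in the other 8 libraries. Its summed CPM of 14 mesenchymal markers was 4744 and 19977, against 4.79 to 24.3 in the others. The labels call it an SCLC line like the rest, so results are also given without it. Markers of immune cells (8 of the 9 listed were in the files, and 1 of the 8 was at 0 in every library) summed to 1.82 to 59.0 CPM, 6 endothelial markers to 8.35 to 464 CPM and 8 lung epithelial markers to 8.84 to 423 CPM. The highest immune and lung epithelial sums were both those of G9577 with MYCN off, and the next highest were 5.92 and 28.8 CPM. Endothelial sums were higher with MYCN off in every line, as in G4314 (145 CPM on and 464 CPM off).

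Of the 98 genes, 45 fell short of the reporting rule. Kcnd3os, Kcnj5 and Kcnk15 had no count in any library, 28 genes (these 3 included) never reached 10 counts, and 8, 2 and 7 genes reached it in 1, 2 and 3 libraries. By class, 21 of 30 voltage-gated (Kv) pore subunits were reported, 2 of 10 modulatory Kv subunits and 8 of 13 Kv accessory subunits. The same held for 7 of 8 calcium-, sodium- and pH-gated channels, 1 of 4 beta subunits of the large-conductance (BK) channel, 4 of 15 inward rectifiers, 8 of 14 two-pore-domain channels and 2 of 4 non-coding transcripts named after a channel. Just inside the rule stood Kcnip1, an accessory subunit, with 84 and 31 counts in G9351 and G9488 with MYCN on, 28 in each of these with MYCN off, and at most 5 elsewhere. Just outside stood Kcna5, Kcnc2, Kcnd3, Kcnj4, Kcnj11, Kcnj14 and Kcnv1, the largest value among them being 168 counts of Kcnj11 in G9351 with MYCN off. Each reported gene reached 10 counts in at least 2 libraries of each condition, though 12 did so in 4 or more libraries of one condition only. That condition was MYCN on for Kcnh1, Kcnh5 and Kcnk5. It was MYCN off for the rest, among them Kcnc4, Kcnip2 and Kcnj2, which are called lower below. The counts of calls and signs and the median below include these 12 genes, so they rest in part on genes that met the minimum more often with MYCN off.

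The potassium channel genes called over the 5 lines were all lower with MYCN on, at a share not far above that of all genes. Of the 52 reported genes that passed the filter of the test, 11 were called lower with MYCN on (21.2%) and 0 higher, with 41 not called. Over all genes tested, 15.6% were called lower and 15.3% higher. At an unadjusted p below 0.05 there were 17 lower and 0 higher, and DESeq2 called 16 lower and 0 higher. The median log2 change, MYCN on minus MYCN off, was -0.54 over the 52 genes and -0.08 over all 12835 genes tested. Negative fitted changes numbered 38 and positive ones 14. Of the 11 called genes, 10 were lower in each of the 5 lines and 10 changed at least 2-fold. The test that picked these genes favours large changes shared by the lines, so both counts are a description and no separate support. In G9577 some of the falls rest on few counts, with MYCN on and off 0 and 1 for Kcnj6, 2 and 3 for Kcnn3, and 3 and 6 for Kcnh8. Calls rest on edgeR's quasi-likelihood test with the line as a block and an adjusted p below 0.05 over all genes. The ranges of the 2 groups overlapped in each of the 11, and how often they did so over all genes was not counted. Without the line block 0 were called (3 at an unadjusted p below 0.05), where 59 of all genes tested were called lower and 215 higher. The calls of Kcnc1, Kcnc4, Kcnh2, Kcnh3, Kcnip2 and Kcnn3 held with each line left out in turn, and the number of genes called lower ran from 6 without G9488 to 14 without G9577. Without G9577, 1 gene was also called higher, Kcnn1 (5 at an unadjusted p below 0.05), and with no filter on low counts 1 other, Kcnn4. Beside this, 9 of the 14 neuroendocrine markers were called lower and 0 higher (median log2 change -0.79). Some tested markers of other cell types were also called lower: 2 of 3 endothelial (Tek and Vwf, median -2.14), 2 of 3 lung epithelial (Foxj1 and Hopx, median -1.54) and 2 of 4 mesenchymal (Dcn and S100a4, median -0.76), with 0 higher. The 1 immune marker tested was not called (log2 change 0.48). The part of any of these in the channel result was not tested. In bulk RNA, fewer cells of a type and less RNA per cell cannot be told apart.

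**Figure D1:**
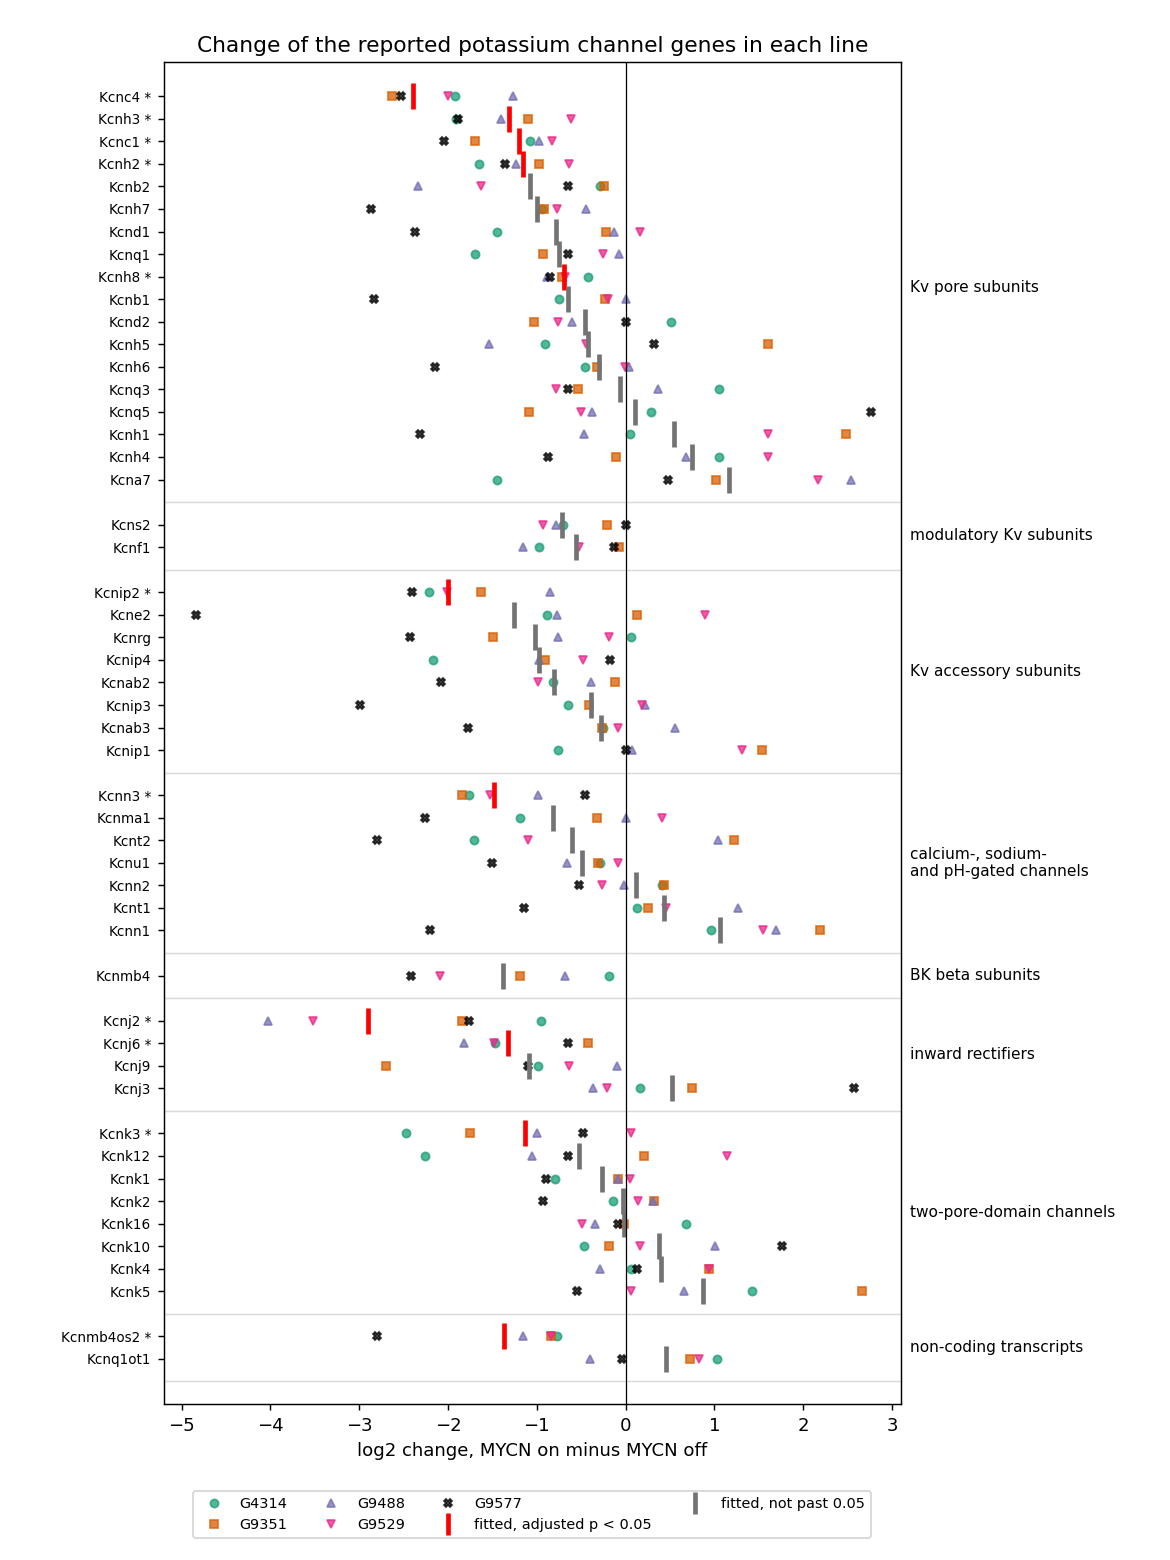
Log2 change (MYCN on minus MYCN off, x axis) of 50 of the 53 reported genes, grouped by class on the y axis; points are the 5 lines, and vertical bars are the fitted change, red with an asterisk where the adjusted p was below 0.05. All 11 red bars lie left of 0, and G9577 (black crosses) often lies far from the other lines.

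Among Kv pore subunits 5 of 21 fell (23.8%, against 15.6% of all genes tested) and 0 rose (median log2 change -0.46). The 5 are all from the Kcnc and Kcnh families, but other tested members of these families were not called. Among those, Kcnh5, Kcnh6 and Kcnh7 had negative fitted log2 changes (-0.43, -0.30 and -0.99). Kcnh1 and Kcnh4 had positive ones (0.54 and 0.75). Kcnc4 (mm9 chromosome 3, 107241221 to 107261816, minus strand), a Shaw-type subunit of fast-repolarising channels, had 3.42, 0.192, 0.093, 1.32 and 1.10 CPM with MYCN on in G4314, G9351, G9488, G9529 and G9577. With MYCN off it had 13.5, 2.18, 0.489, 5.83 and 7.23 CPM in the same order. It was lower with MYCN on in every line although the groups overlapped, and its level stayed low in G9488 in both conditions. The fitted log2 change was -2.39 (SE 0.32, adjusted p = 0.00421), or 5.24-fold lower.

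Kcnc1 (chromosome 7, 53651838 to 53694074, plus strand), the related Shaw-type subunit, was far more abundant in 4 lines. It stood at 170, 160, 130, 119 and 0.274 CPM with MYCN on, in the same line order, and at 358, 521, 256, 211 and 1.73 CPM with MYCN off. In the 4 lines other than G9577 all values with MYCN off exceeded all values with MYCN on. The log2 change was -1.21 (SE 0.20, adjusted p = 0.00738).

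Kcnh2 (chromosome 5, 23825407 to 23857422, minus strand), the ERG channel of the rapid delayed rectifier current, had the highest level per length of the Kv pore subunits. Its RPKM (CPM per kilobase of exon) was 19.3 ± 11.2 with MYCN on and 43.0 ± 27.2 with MYCN off (SD, n = 5 lines). It had 121, 117, 57.4, 138 and 14.5 CPM with MYCN on and 380, 231, 136, 214 and 37.7 CPM with MYCN off, so each line fell, G4314 by the most and G9529 by the least. The log2 change was -1.15 (SE 0.16, adjusted p = 0.00478), or 2.22-fold lower. Kcnh3 (chromosome 15, 99055407 to 99073248, plus strand), an ELK-type subunit of the same family, had 77.2, 36.9, 23.5, 75.9 and 0.183 CPM with MYCN on and 290, 79.1, 62.5, 117 and 1.19 CPM with MYCN off. It too fell in every line (log2 change -1.31, SE 0.24, adjusted p = 0.00914) and shares 1 exon base with Mcrs1.

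Kcnh8 (chromosome 17, 52742034 to 53121330, plus strand), the other ELK-type gene that fell, changed least. It had 24.6, 39.0, 14.8, 26.8 and 0.274 CPM with MYCN on and 33.2, 64.3, 27.5, 43.2 and 0.647 CPM with MYCN off (log2 change -0.69, SE 0.17, adjusted p = 0.0224). The 5 single-line changes lay close together, from -0.89 to -0.43. That of G9577 rests on 3 counts with MYCN on and 6 with MYCN off, so it says little about agreement with the other lines. The call of Kcnh8 was lost without G9351, G9488 or G9529 (adjusted p = 0.0790, 0.0761 and 0.0524).

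The remaining 16 Kv pore subunits did not pass. Kcnq1, a cardiac and epithelial delayed rectifier, was lower in all 5 lines but not called (log2 change -0.75, SE 0.32, adjusted p = 0.114). Kcnb2, a neuronal delayed rectifier subunit, was also lower in all 5 lines (log2 change -1.07, SE 0.43) without passing the threshold (adjusted p = 0.0937). In G9577 the falls of Kcnq1 and Kcnb2 each rest on 0 counts with MYCN on and 1 with MYCN off. The highest fitted value was that of Kcna7, at 1.16 (SE 0.69, adjusted p = 0.226), with -1.45 in G4314 against 2.54 in G9488. These genes, other than Kcnip2 and those called or leading a class, were chosen for mention after their values were seen, as were Kcnn1 and the other uncalled genes below. The same holds for the uncalled Kcnh genes above.

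**Figure D2:**
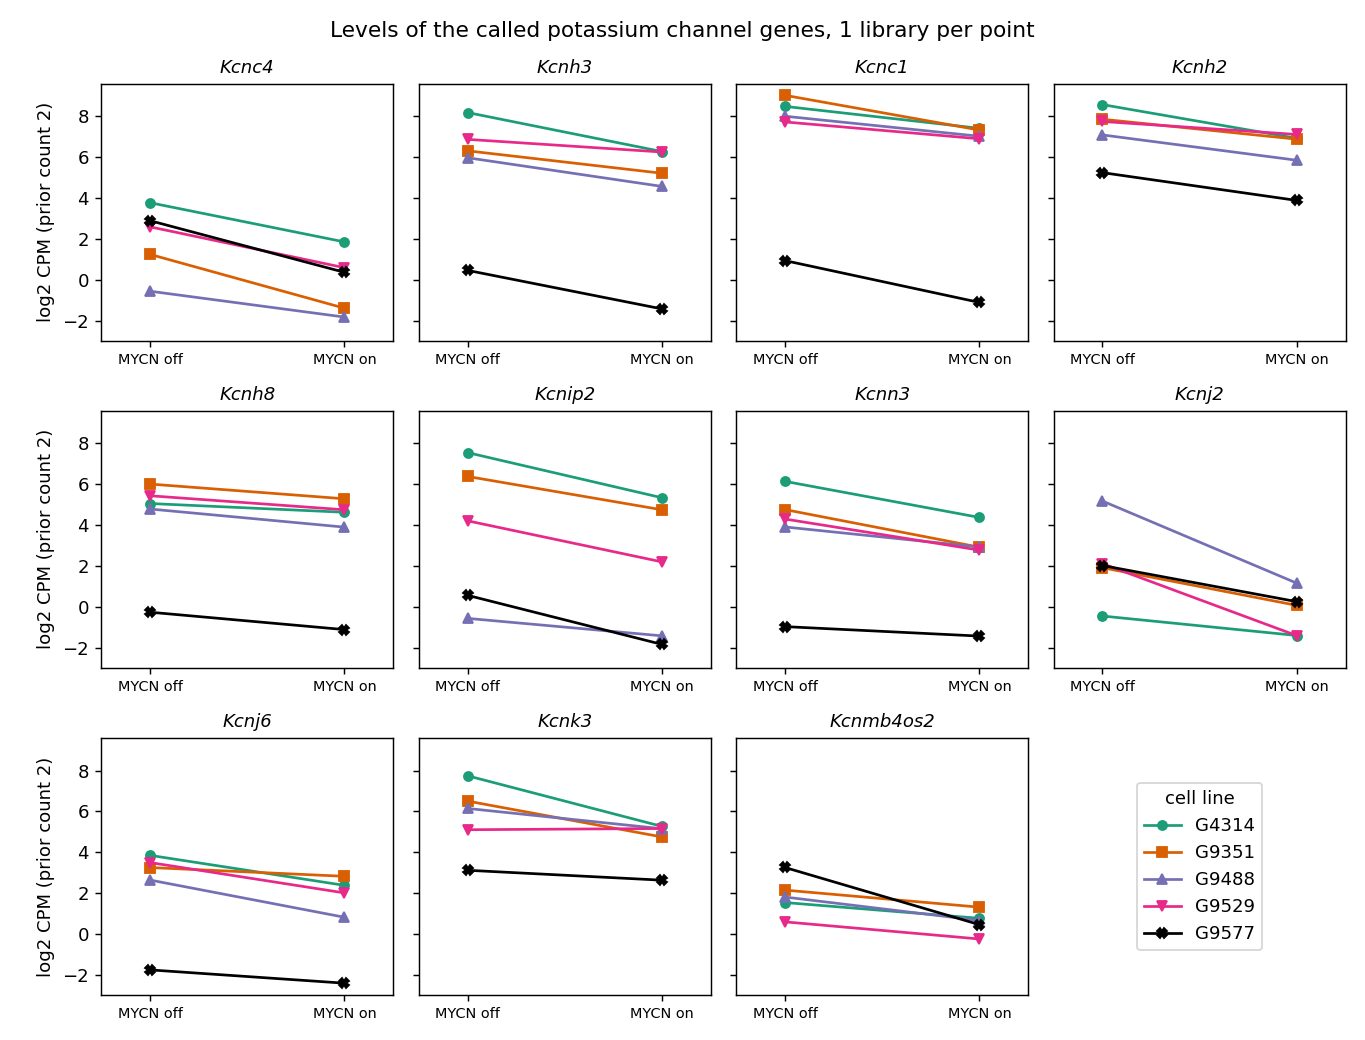
Level of the 11 called genes as log2 CPM (y axis, prior count 2) with MYCN off and on (x axis), 1 line of points per cell line and 1 library per point. Every segment falls except that of Kcnk3 in G9529, and G9577 lies lowest for Kcnc1, Kcnh2, Kcnh3, Kcnh8, Kcnn3, Kcnj6 and Kcnk3.

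Accessory subunits of Kv channels gave 1 fall among 7 tested, that of Kcnip2, and 0 rises (median log2 change -0.98). The share that fell, 14.3%, is near the 15.6% of all genes tested. Kcnip2 (chromosome 19, 45866836 to 45890553, minus strand) encodes a calcium-binding protein that brings Kv channels of the Kcnd family to the surface and tunes their inactivation. It had 40.4, 26.8, 0.186, 4.42 and 0.0915 CPM with MYCN on in G4314, G9351, G9488, G9529 and G9577, and 187, 83.4, 0.489, 18.4 and 1.29 CPM with MYCN off. The level was high in G4314 and G9351, intermediate in G9529 and near 0 in G9488 and G9577, where the 4 libraries held 2, 5, 1 and 12 counts. It was lower with MYCN on in all 5 lines, 4.00-fold in the fit (log2 change -2.0, SE 0.24, adjusted p = 0.0037). The pore subunits it partners did not pass: Kcnd2 had a log2 change of -0.46 (adjusted p = 0.290) and Kcnd1 one of -0.78 (adjusted p = 0.187).

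Kcnip3, which encodes the calcium sensor calsenilin and had the highest level per length of the accessory subunits over the 10 libraries (17.1 RPKM, against 16.3 for Kcnab2 and 14.6 for Kcnip2), but not with MYCN off, stood at 68.5, 79.7, 67.9, 64.0 and 0.0915 CPM with MYCN on and at 108, 106, 58.5, 56.1 and 2.05 CPM with MYCN off. The 4 lines other than G9577 split, with falls in G4314 and G9351 and small rises in G9488 and G9529 (fitted log2 change -0.39, SE 0.39, adjusted p = 0.452). Kcnab2, the beta subunit with an oxidoreductase fold, and Kcnip4 were lower in all 5 lines without passing (log2 changes -0.80 and -0.98, adjusted p = 0.0618 and 0.0623), and both passed without G9577 (adjusted p = 0.0383 and 0.0329). Of the modulatory Kv subunits, which do not form channels alone, Kcnf1 had the higher level per length, 2.36 ± 1.17 RPKM with MYCN on and 3.65 ± 2.54 RPKM with MYCN off (SD, n = 5 lines). Neither it (log2 change -0.56, SE 0.23, adjusted p = 0.105) nor Kcns2 (-0.72, adjusted p = 0.150) was called.

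The small-conductance, calcium-gated (SK) channel genes did not move together. Kcnn3 (chromosome 3, 89324086 to 89476416, plus strand) was the 1 gene called of 7 calcium-, sodium- and pH-gated channels (14.3%, against 15.6% of all genes tested called lower). It had 20.6, 7.39, 7.44, 6.67 and 0.183 CPM with MYCN on and 70.5, 27.0, 14.9, 19.5 and 0.324 CPM with MYCN off, lower in every line (log2 change -1.48, SE 0.22, adjusted p = 0.00506). Kcnn1 had 7.41, 27.4, 26.6, 27.5 and 1.46 CPM with MYCN on and 3.73, 5.87, 8.12, 9.28 and 7.45 CPM with MYCN off. It was higher with MYCN on in 4 lines (single-line log2 changes 0.96, 2.19, 1.69 and 1.55) and lower in G9577 (-2.21). Over the 5 lines its log2 change was 1.06 (SE 0.63, adjusted p = 0.229). Without G9577 it was 1.68 (SE 0.23, adjusted p = 0.00295), and Kcnn1 was then the 1 potassium channel gene called higher beside 14 called lower, where 17.4% of all genes tested were called higher and 17.4% lower.

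Kcnn2, which had the highest mean level per length in this class over the 10 libraries, stood at 8.17, 11.4, 19.5, 18.0 and 0.0915 CPM with MYCN on and at 6.09, 8.42, 19.8, 21.6 and 0.216 CPM with MYCN off. Its groups overlapped almost wholly (log2 change 0.11, SE 0.24, adjusted p = 0.737), and 284 of its 2046 exon bases are shared with A330093E20Rik. Neither Kcnt1, the sodium-activated channel (log2 change 0.43, SE 0.31, adjusted p = 0.306), nor Kcnma1, the BK pore (-0.82, SE 0.56, adjusted p = 0.292), was called.

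The BK beta subunit Kcnmb4 and the transcript Kcnmb4os2, named as its opposite strand, lie head to head on chromosome 10 (115854924 to 115910579, minus strand, and 115910219 to 115912042, plus strand). Kcnmb4 had 2.38, 1.92, 1.40, 0.188 and 2.29 CPM with MYCN on and 2.73, 4.64, 2.35, 1.41 and 13.1 CPM with MYCN off (log2 change -1.38, SE 0.44, adjusted p = 0.0503). Kcnmb4os2 had 1.52, 2.30, 1.40, 0.658 and 1.19 CPM with MYCN on and 2.73, 4.26, 3.33, 1.33 and 9.39 CPM with MYCN off (log2 change -1.37, SE 0.40, adjusted p = 0.0375). Both were highest in G9577 with MYCN off and lower with MYCN on in all 5 lines. Their exons overlap (338 of 1595 bases of Kcnmb4os2) and counting ignored strand, so reads on the shared bases cannot be assigned to one of them by strand. Of the 1005 exon bases of Kcnmb4, 624 are shared with Kcnmb4os2 or with a further transcript, Kcnmb4os1, so most of its length is open to this. The call of Kcnmb4os2 was lost without each of G4314, G9351, G9488 and G9529 (adjusted p between 0.0596 and 0.0828). Kcnq1ot1, the imprinted non-coding RNA that lies across Kcnq1 on the opposite strand, was not called (log2 change 0.45, SE 0.24, adjusted p = 0.176).

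Inward rectifiers, which pass current near the resting potential, gave 2 falls among 4 tested and 0 rises. Over all genes tested, 15.6% were called lower and 15.3% higher. With 4 genes tested, the class is too small to compare with these shares. Kcnj2 (chromosome 11, 110927478 to 110938139, plus strand), a strong inward rectifier, had 0.190, 0.864, 2.05, 0.188 and 1.01 CPM with MYCN on and 0.545, 3.60, 36.1, 4.15 and 3.88 CPM with MYCN off. It was lower in every line, but one library, G9488 with MYCN off, held 369 counts where the others had 2 to 47. The fitted log2 change was -2.90 (SE 0.51, adjusted p = 0.00844), the most negative of the 52 genes, and without G9488 the gene did not pass the filter of the test. Kcnj6 (chromosome 16, 94970290 to 95219303, minus strand), a subunit of channels opened by G proteins, had 5.04, 6.91, 1.58, 3.85 and 0 CPM with MYCN on and 14.3, 9.37, 6.07, 11.1 and 0.108 CPM with MYCN off. Each line was lower, G9577 by 1 count (log2 change -1.33, SE 0.34, adjusted p = 0.0250), and the call was lost without G4314, G9488 or G9529 (adjusted p = 0.0839, 0.0773 and 0.0642).

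Kcnj3, the main partner of Kcnj6 in such channels and the inward rectifier with the highest level per length, was not called. It had 44.7, 44.9, 87.6, 47.9 and 18.3 CPM with MYCN on and 39.8, 26.7, 113, 55.5 and 2.91 CPM with MYCN off (log2 change 0.52, SE 0.40, adjusted p = 0.347). Its largest single-line change was the rise of 2.57 in G9577. Kcnj9, the remaining G-protein-gated gene reported, was not called either (log2 change -1.09, SE 0.60, adjusted p = 0.194).

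MYC proteins bind DNA with MAX at E-boxes, whose canonical form is CACGTG, a palindrome that reads the same on both strands. RefSeq promoter windows (GRCm38.p6, 250 bases before to 50 bases after the start) were matched by symbol for 38 of the 53 reported genes (71.7%). This is under 80%, so no share over the members is drawn. Over all 32851 windows, 7.15% hold CACGTG. Among the 38 genes it was found for Kcnj2, which fell, and for Kcnh4 and Kcnk5, which were not called (log2 changes 0.75 and 0.87, adjusted p = 0.246 and 0.274). The match lies 84 bases before the start of Kcnj2, 87 before that of Kcnh4 and 26 after that of Kcnk5. The window of Kcnip2 holds none. The 250 bases before the start are shown for Kcnj2 and Kcnh4, where the capitals mark the E-box, and for Kcnip2 as the example without one; a match is a description and not a binding site.
Kcnj2, chr11:111065914-111066163, plus strand: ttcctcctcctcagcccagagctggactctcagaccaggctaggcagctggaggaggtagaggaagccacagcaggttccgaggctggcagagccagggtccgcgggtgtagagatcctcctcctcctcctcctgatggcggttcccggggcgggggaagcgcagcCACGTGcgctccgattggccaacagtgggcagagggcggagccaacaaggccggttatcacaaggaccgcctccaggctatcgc
Kcnh4, chr11:100759779-100760028, minus strand: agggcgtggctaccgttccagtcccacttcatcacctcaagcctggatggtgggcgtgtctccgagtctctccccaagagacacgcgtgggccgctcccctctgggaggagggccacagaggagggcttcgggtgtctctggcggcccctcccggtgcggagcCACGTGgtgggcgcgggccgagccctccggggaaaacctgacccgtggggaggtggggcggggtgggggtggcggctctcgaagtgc
Kcnip2, chr19:45816064-45816313, minus strand: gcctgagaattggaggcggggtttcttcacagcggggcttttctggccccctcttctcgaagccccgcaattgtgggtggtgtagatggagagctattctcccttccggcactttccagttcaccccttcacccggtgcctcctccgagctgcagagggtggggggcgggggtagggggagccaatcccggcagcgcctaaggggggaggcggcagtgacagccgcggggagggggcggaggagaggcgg

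Two-pore-domain channels, which carry the background leak of potassium, included the 2 genes with the highest mean level per length over the 10 libraries, though with MYCN off alone Kcnh2 (43.0 RPKM) exceeded Kcnk2 (37.9 RPKM). Of 8 tested, 1 fell (12.5%, against 15.6% of all genes tested) and 0 rose. The median log2 change of -0.03 was the nearest to 0 of the 8 classes. Kcnk3 (chromosome 5, 30890543 to 30927643, plus strand), an acid-sensitive leak channel, had 38.4, 26.8, 35.4, 35.7 and 6.04 CPM with MYCN on and 215, 90.8, 70.7, 34.3 and 8.52 CPM with MYCN off. It fell in G4314, G9351 and G9488, less in G9577, and not in G9529 (single-line change 0.06). The log2 change was -1.13 (SE 0.36, adjusted p = 0.0497), and the call was lost without G4314, G9351 or G9488 (adjusted p = 0.128, 0.150 and 0.110). Library size alone and the filter of 10 counts in 4 libraries also ended it (adjusted p = 0.0502 and 0.0504), and 229 of its 3810 exon bases are shared with Gm9899.

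Kcnk1, a weakly rectifying leak channel, led all reported genes with a mean of 40.9 RPKM over the 10 libraries. It had 113, 78.0, 91.4, 143 and 0.549 CPM with MYCN on and 197, 82.8, 97.3, 138 and 1.19 CPM with MYCN off (log2 change -0.27, SE 0.18, adjusted p = 0.280). Kcnk2, the mechanically and lipid-gated TREK channel, came next at 37.3 RPKM and was high in every library, from 24.7 to 55.7 RPKM. Its log2 change was -0.03 (SE 0.20, adjusted p = 0.914). Kcnk16 stood at 22.9 RPKM (log2 change -0.02, SE 0.24, adjusted p = 0.956) with 1 count in each library of G9577.

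The line G9577 differed from the other 4 lines in most potassium channel genes. In both conditions, 32 of the 53 reported genes (60.4%) were lower there than in any other line, against 3206 of the 12835 genes tested, and 1 gene, Kcnk5, was higher (1.89% against 22.6%). This line gives 1 library per condition, so the comparison is a description. Summed RPKM of the 53 genes was 53.2 with MYCN on and 129 with MYCN off in G9577, against 334 to 393 and 393 to 732 in the others. The reporting rule bears on this, since a gene with counts in G9577 alone has 2 libraries and could not meet it. The genes tested had to pass a filter on low counts by group, so the shares over all genes carry a similar limit. Kcnc1 and Kcnk1 had at most 16 counts in G9577 and at least 812 elsewhere. Kcnk5, an acid- and volume-sensitive leak channel, had 2.31 and 3.40 RPKM in G9577 with MYCN on and off, where the other lines reached at most 0.719 and 0.436. Kcne2, an accessory subunit of Kv channels, was higher in G9577 than in the other lines with MYCN off (6.18 RPKM against at most 1.34), but not with MYCN on (0.108 RPKM). Summed over the class, two-pore-domain channels in G9577 gave 31.6 and 55.4 RPKM with MYCN on and off, and Kv pore subunits 8.64 and 30.5 RPKM.

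**Figure D3:**
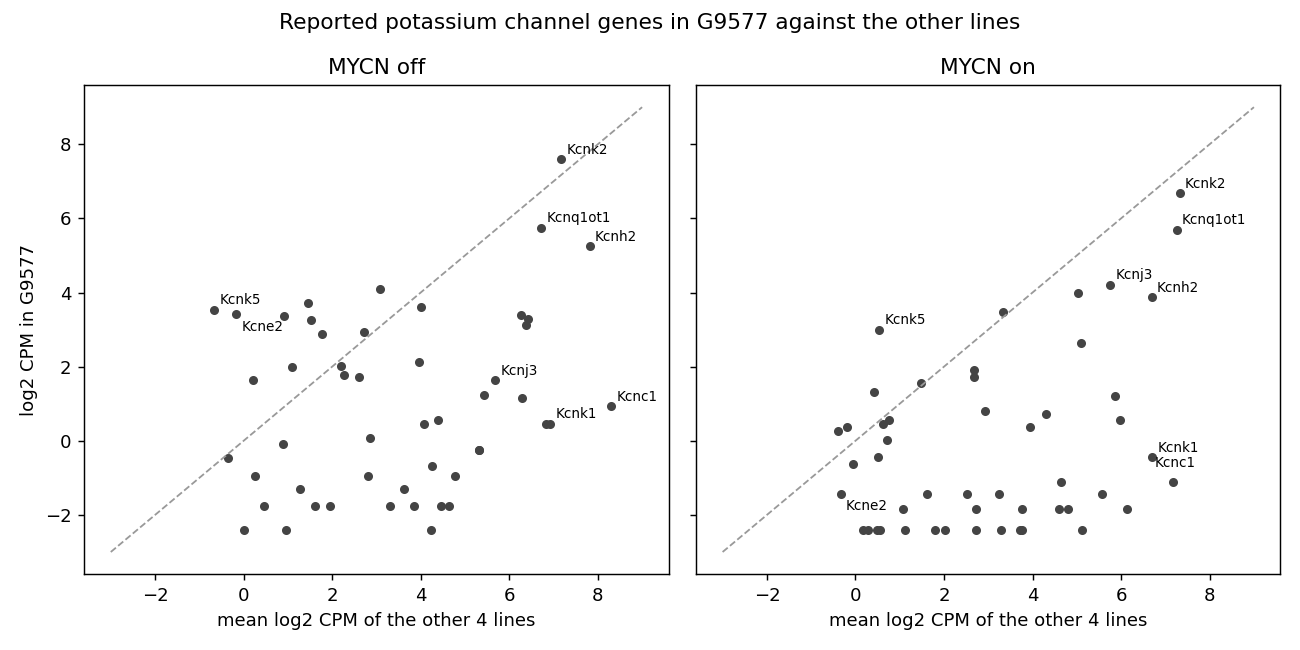
Log2 CPM of 50 of the 53 reported genes in G9577 (y axis) against the mean of the other 4 lines (x axis), with MYCN off (left) and on (right), 1 point per gene; the dashed line marks equal levels. Most points lie below the line, Kcnk2 lies near it and Kcnk5 above it.

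Genes that work beside potassium channels were read from 4 lists. Of 24 tested partners of potassium and leak channels, 11 fell and 1 rose (median log2 change -0.54), where 15.6% of all genes tested were called lower and 15.3% higher. The same shares stand behind the other 3 lists. Hcn4, a cation channel opened by hyperpolarisation, averaged 90.7 ± 57.1 CPM off doxycycline against 34.8 ± 20.2 CPM on it (SD over 5 lines) and fell by 1.36 on the log2 scale (SE 0.19, adjusted p = 0.0044). Dpp10, which joins Kcnd channels as Kcnip2 does, fell by 1.46 on the log2 scale (SE 0.27, adjusted p = 0.00983), while Hcn3 rose in all 5 lines (log2 change 0.91, SE 0.18, adjusted p = 0.0116, and 0.0502 without G4314). Voltage-gated sodium channels, which start the action potential, gave 6 falls among 8 tested and 0 rises (median -1.07). Scn1a, Scn2a1 and Scn9a had log2 changes of -1.13, -2.05 and -1.02 (SE 0.14, 0.30 and 0.19, adjusted p = 0.00368, 0.00519 and 0.00975), each lower in 5 of 5 lines.

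Voltage-gated calcium channels, which trigger secretion, gave 5 falls among 18 tested and 0 rises (median log2 change -0.89). Cacna2d1, an auxiliary subunit that raises surface channel number, averaged 605 ± 385 CPM off doxycycline against 218 ± 111 CPM on it (SD over 5 lines), 2.46-fold lower (SE of the log2 change 0.16, adjusted p = 0.00368), and the pore genes Cacna1a and Cacna1c had log2 changes of -1.27 and -0.88 (adjusted p = 0.00698 and 0.013, the latter 0.0509 without G9488). Of 6 tested subunits of the sodium-potassium pump, which builds the potassium gradient, 2 fell, Fxyd6 and Atp1b1 (log2 changes -1.45 and -1.28, adjusted p = 0.003 and 0.00374), and 1 rose. Together 24 of 56 tested genes of these lists fell and 2 rose. The falls numbered 14 without G4314 and 12 without G9351, while those over all genes dropped from 2004 to 916 in each of these fits.

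**Figure D4:**
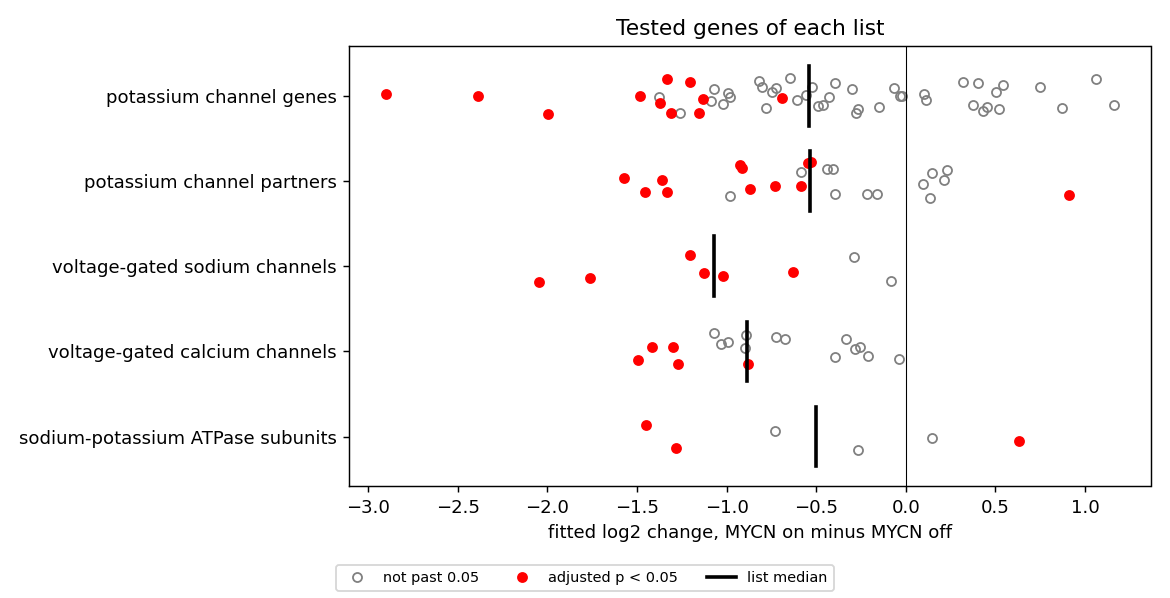
Fitted log2 change (MYCN on minus MYCN off, x axis) of each tested gene of the potassium channel set and the 4 related lists (y axis), filled red where the adjusted p was below 0.05; black bars mark list medians. All medians lie left of 0, from -1.07 for sodium channels to -0.50 for pump subunits.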

How the data were processed

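RNA-seq libraries of 5 cell lines, each with MYCN on and off, were analysed from the deposited read counts per gene. The submitters' processing notes name bcl2fastq 1.8.4, STAR 2.5.2a and the mm9 build. Per the file headers, the authors' counts came from featureCounts 1.6.0 with UCSC mm9 gene models, ignoring strand and with no option set for multi-mapping reads. Gene coordinates are those of the deposited files (mm9), and the deposited exon lengths gave RPKM.

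Low genes were removed with filterByExpr by group (minimum count 10), leaving 12835 genes, and TMM factors were applied. The test was edgeR's (4.0.16, R 4.3.3) glmQLFTest with line as a block, two-sided, Benjamini-Hochberg over all genes, threshold 0.05. SE is the log2 change over the square root of F. Single-line changes are differences of log2 CPM (prior count 2). The members and lists were chosen with earlier results of these data known. Named genes were Kcnip2, every called gene, the highest RPKM per class, those at 4 or 3 libraries, and the 3 smallest p per related list. The fit was checked on simulated counts with the same spread for every gene and the same fold in every line. That setting is simpler than these data, so the check does not bear on single calls. Lines pair libraries by the labels: deviations from group means correlated within a line at r = 0.721 to 0.873 and between lines at most at 0.272. Alternatives were DESeq2 1.42.0, RLE or no scaling factors, other filters, no block, and each line left out. P-values measure the spread over 5 lines with 1 culture each. No protein table was used. Results of some genes in these lists are not reported here by name, and 3 of the 53 genes are not drawn in plots that show genes singly.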

Additional observations from a re-analysis of the deposited data

Results flagged for a closer look

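In 17 of 54 sets of 5 lines, 1 line lay far from the rest by Dixon's test at the 95% level, where chance gives about 1 in 20 for a single set. In 16 of the 17 that line was G9577, always as the lowest. All sets use the same 5 lines and are not independent, so the number of flags is a description. With MYCN on, the log2 CPM in G9577 was -1.11 for Kcnc1, -1.43 for Kcnh3, -1.11 for Kcnh8, -1.83 for Kcnip3, -0.44 for Kcnk1, 2.64 for Kcnk3, -1.83 for Kcnn2 and -1.43 for Kcnn3. The next lowest line stood at 6.90 for Kcnc1 and at 4.75 for Kcnk3. With MYCN off it was 0.94 for Kcnc1, 0.46 for Kcnh3, -0.26 for Kcnh8, 1.16 for Kcnip3, -1.75 for Kcnj6 and 0.46 for Kcnk1. The log2 change in G9577 was also the lowest by far for Kcnip3 (-2.996, next -0.65) and for Kcnmb4os2 (-2.80, next -1.15). The remaining set was Kcnmb4 with MYCN on, where G9529 lay lowest at -1.41 log2 CPM (2 counts) and the next line at 0.66.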

How the results depend on the processing

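The log2 changes of 46 named genes were refitted, and each kept its direction under DESeq2, RLE scaling, library size alone, both other filters and no replicate block. With a line left out, 3 of the 46 reversed, none of them called in any fit: Kcnn2 (-0.028 to 0.20), Kcnk16 (-0.28 to 0.10) and Kcnk2 (-0.15 to 0.20). Without the replicate block, edgeR called 0 potassium channel genes lower (3 at an unadjusted p below 0.05) and 0 higher (0 unadjusted), and of the related lists 0 lower (8 unadjusted) and 0 higher (0 unadjusted). The number of potassium channel genes called lower ran from 6 to 14 with a line left out and the number called higher from 0 to 1. With no filter on low counts 1 was called higher, Kcnn4. Of the related lists, 12 to 31 genes were called lower and 0 to 2 higher with a line left out, and 1 higher with RLE scaling or no filter. Kcnmb4, which just missed the threshold, was called by DESeq2 (adjusted p = 0.0120), with RLE scaling (0.0443) and with library size alone (0.0454), and all 3 settings also called Kcnab2 (0.00955 with DESeq2, 0.0480 with RLE scaling). The cause of these differences was not tested. Depth limits genes with a few counts in a library, such as Kcnip2 in G9488 and most channel genes in G9577, where a change rests on single counts.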

Other observations

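Some potassium channel genes under the reporting rule were seen in 1 or 2 lines. Kcnn4, the intermediate-conductance, calcium-gated channel of blood and epithelial cells and fibroblasts, had 84 counts in G9577 with MYCN on and 6 with MYCN off, and at most 1 in any other library. Kcna5, a Kv pore subunit, had 51 and 96 counts in G9351 with MYCN on and off and at most 10 elsewhere. Kcnj11, the pore of the ATP-sensitive channel of beta cells, had 42 and 168 counts in G9351 and 5 and 35 in G4314, with at most 4 in the other lines. Each line gave 1 library per condition, so these differences have no replicate check. They were chosen after their values were seen.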
